A study of Mus musculus with 8 samples.

Results

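The nuclear genes for the subunits of the mitochondrial oxidative phosphorylation complexes were compared between common myeloid progenitors (CMPs) of young and old mice. Members were chosen by name: Nduf followed by a, b, c, s or v and a digit, Sdha to Sdhd, and names beginning with Uqcr, with Cox4 to Cox8 or with Atp5. The rule found 85 genes among the 34797 gene names of the array, on 128 of its 55681 non-control probes. Each gene was read by its brightest probe. Complex I had 37 genes, complex II 4, complex III 8, complex IV 19 and complex V 17. Cox4nb, Atp5s and Atp5sl match the letters but encode no subunit of the enzymes. They were kept in the counts, and counts without them are given below.

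CMPs are bone marrow cells that give rise to myeloid, erythroid and megakaryocytic cells. The samples came from untreated wildtype mice of the inbred strain C57BL/6J, and no group carried a transgene or a deletion. The young group was 2 to 3 months old and the old group 22 to 24 months according to the sample labels. The series' design text and the study's methods give slightly different ages. The cells were sorted by flow cytometry as lineage-negative, cKit+, Sca-1-, CD34+ and FcγR-low. Each age was measured on 4 arrays with a single dye, named young replicates 3 to 6 and old replicates 2 to 5. The study describes CMPs of single mice, measured one by one, but counts fewer mice per age than there are arrays. The sources used here do not name the arrays of those mice, and all 8 were kept. The mice of the study were of both sexes, and the labels do not give the sex behind each array.

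In oxidative phosphorylation, electrons from NADH enter the inner mitochondrial membrane at complex I and those from succinate at complex II. They pass through ubiquinone to complex III and through cytochrome c to complex IV, which reduces oxygen to water. Complexes I, III and IV pump protons out of the matrix, and complex V, the ATP synthase, lets them flow back while it makes ATP. Most subunits are encoded in the nucleus, as are all members here, while a small set is encoded by mitochondrial DNA. Blood stem cells are known for a metabolism that leans on glycolysis, and their commitment to progenitors is accompanied by a greater use of oxidative phosphorylation.

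Expression of these genes was nearly level between the ages. Of 85 genes, 82 passed the filter, a signal well above background on 4 or more of the 8 arrays, and were tested. None was called by limma, a linear model fitted across all 33495 tested probes, at an adjusted p under 0.05 and a difference of at least 1.5-fold. The same call took 0.207% of all 23166 tested genes. At an unadjusted limma p under 0.05, 0 members were higher in old CMPs, where 3.95% of all tested genes were, and 0 were lower, where 2.68% were. A test of each gene by itself, without the variance that limma shares across genes, also gave 0 members at that threshold. In 0 members did the 4 old arrays lie wholly above the 4 young ones, a pattern found in 3.17% of all tested genes, and in 0 wholly below, found in 1.67%. Without old replicate 5, 10 members lay wholly above, among them Ndufa11, Uqcrb and Cox6b1, against 4.76% of all tested genes in the same setting. The smallest unadjusted p was 0.13, for Cox6a2 (limma, adjusted p = 0.97).

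The intervals show how much of a difference these arrays leave room for. In 55 of 82 members (67.1%), the 95% interval of the difference lay within 1.5-fold in both directions, against 27.6% of all tested genes and 53.9% of 2921 other genes of like brightness (within the 10th to the 90th percentile of the members). The lowest bound of any member was -0.80 and the highest 0.89 on the log2 scale. The median standard deviation between arrays of one age was 0.20 for the members, 0.33 for all tested genes and 0.23 for those of like brightness. By complex, the interval lay within 1.5-fold for 24 of 37 genes of complex I, 4 of 4 of complex II, 4 of 8 of complex III, 8 of 16 of complex IV and 15 of 17 of complex V. The count of 55 fell to 29 without old replicate 3, to 32 without old replicate 5 and to 33 without young replicate 6. It depended more on the processing. Scaling each array to its median left 13 such intervals. A block on the replicate number, which takes arrays without a partner number out of the comparison, left 0. In the other direction, the count was 72 with quantile normalization and 63 with another background correction (normexp).

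**Figure D1:**
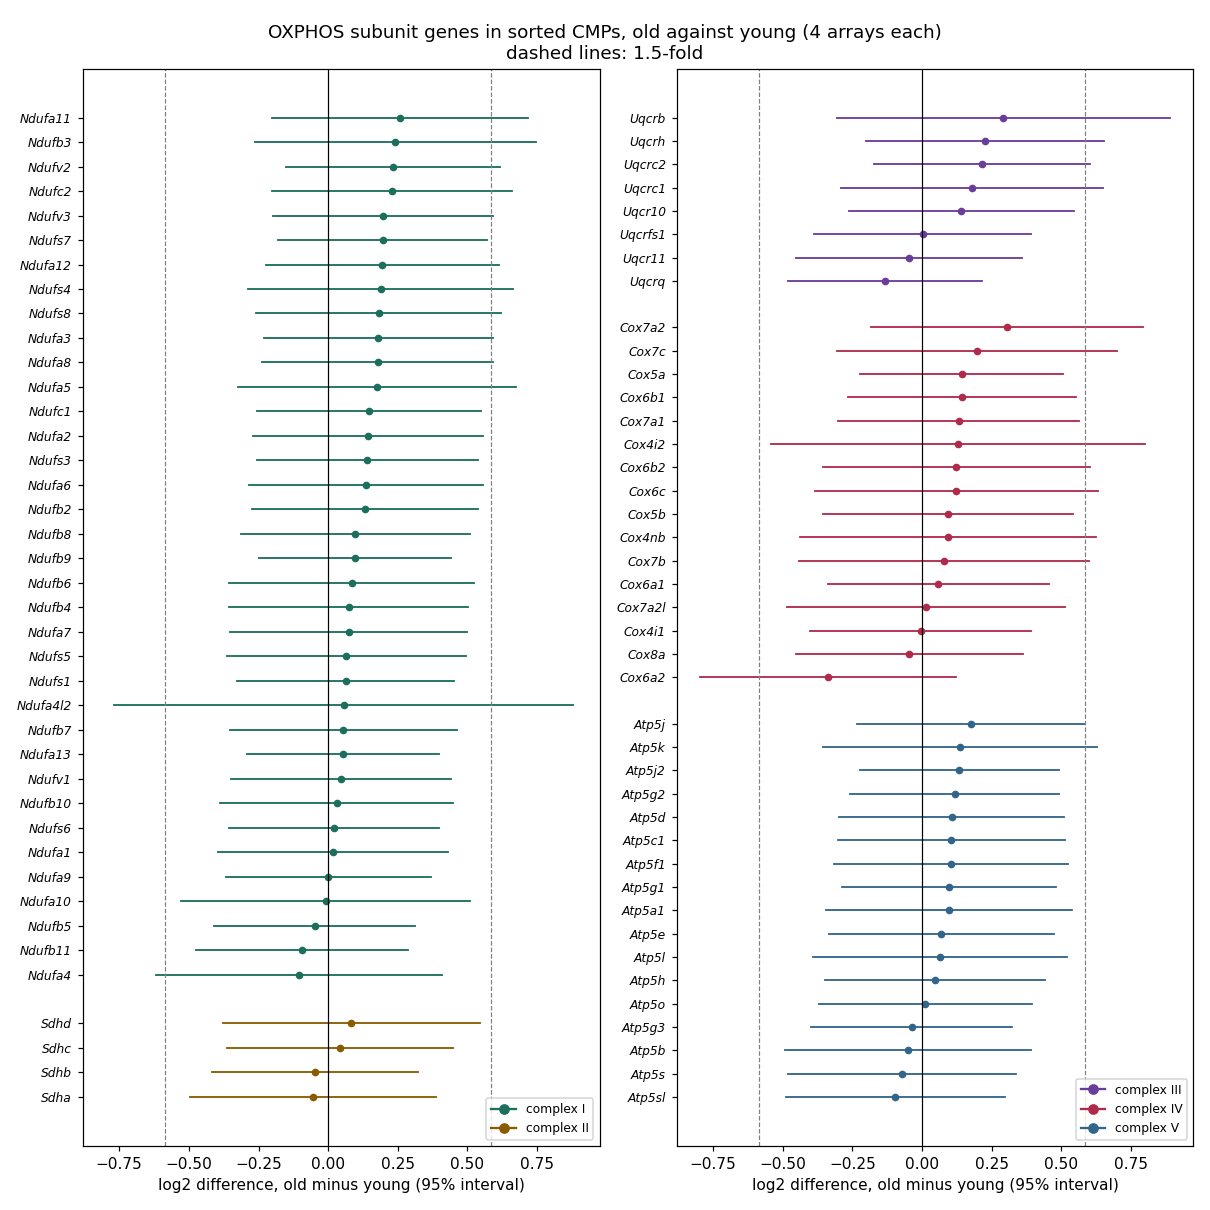
The log2 difference, old minus young, of 81 of the 82 tested genes, with its 95% interval from limma, grouped by complex (4 arrays per age). Every interval shown crosses 0, the fitted differences run from -0.34 for Cox6a2 to 0.30 for Cox7a2, and dashed lines mark 1.5-fold.

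The fitted differences were small and mostly of one sign. They were above 0 in 67 of 82 members and below 0 in 15, with a median of 0.10 on the log2 scale. Over all tested genes the median was -0.015, and 47.6% lay above 0. Among the 2921 genes of like brightness, 66.3% lay above 0, with a median of 0.062. Without the 3 names that encode no subunit, 66 of 79 genes lay above 0, with a median of 0.10. These counts are descriptions, since genes read on the same arrays are not replicates.

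The sign of the members' median differed between the slides. Each of the 2 slides carried 2 young and 2 old arrays, so slide and single arrays cannot be told apart. On slide 1 (young replicates 3 and 4, old replicates 2 and 4) the median difference was 0.19 and 71 of 82 members lay above 0. On slide 2 (young replicates 5 and 6, old replicates 3 and 5) it was -0.038 and 30 of 82 lay above 0. Without old replicate 2 the median over both slides was 0.051, and without old replicate 5 it was 0.15. Quantile normalization lowered the median to 0.031, with 53 members above 0. Scaling each array to its median in place of its 75th percentile moved the median of all tested genes by about as much as that of the members. Under that scaling the members' median was 0.21 and that of all genes 0.10, and 69 members lay above the median of all genes under either scaling.

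**Figure D2:**
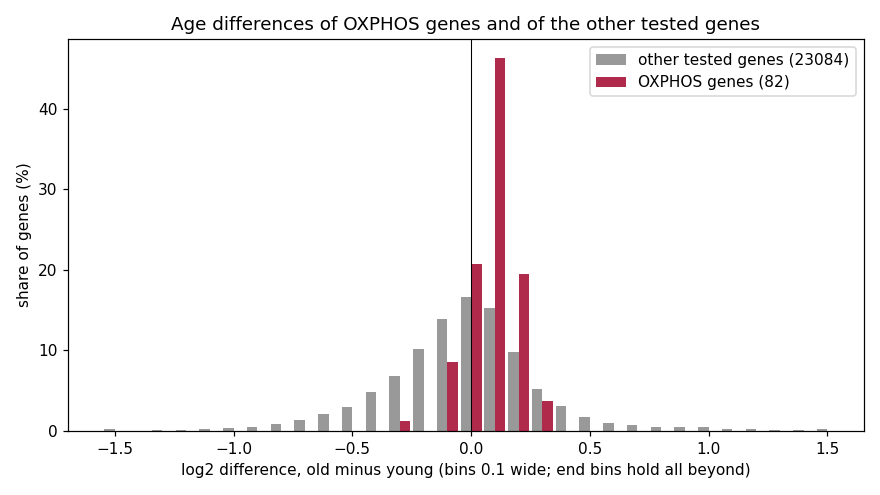
Share of genes (vertical axis, percent) by log2 difference, old minus young (horizontal axis, bins of 0.1), for the 82 OXPHOS genes and the 23084 other tested genes. The OXPHOS genes lie between -0.34 and 0.30, with a median of 0.10, while the other genes spread much more widely around a median of -0.016.

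The deviation of each gene from its own mean over 8 arrays was taken, and the median over the 82 members was computed for each array. It was -0.020, -0.049, -0.13 and 0.065 in young replicates 3, 4, 5 and 6. It was 0.16, 0.0025, 0.12 and -0.12 in old replicates 2, 3, 4 and 5. Old replicates 2 and 4 stood highest, old replicate 5 and young replicate 5 lowest, and the ages overlapped. The whole range over arrays was 0.29 for the members and 0.095 for all tested genes. Ranges were wider in smaller related sets, at 0.45 for the mitochondrial ribosome, 0.49 for assembly factors, 0.45 for the citric acid cycle and 0.56 for glycolysis. Old replicate 2 was the highest of the 8 arrays for 29 of 82 members (35.4%), against 17.5% of all genes, and the lowest for 0. Young replicate 5 was the lowest for 27 members (32.9%) and old replicate 5 for 23 (28.0%), against 15.2% and 16.2% of all genes. Array signal at the 75th percentile was 517.6 and 289.7 in old replicates 2 and 4, where the members stood highest, and 352.3 and 423.2 in young and old replicate 5, where they stood lowest. It was highest in young replicate 4, at 565.4, and its part in these shifts was not tested.

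**Figure D3:**
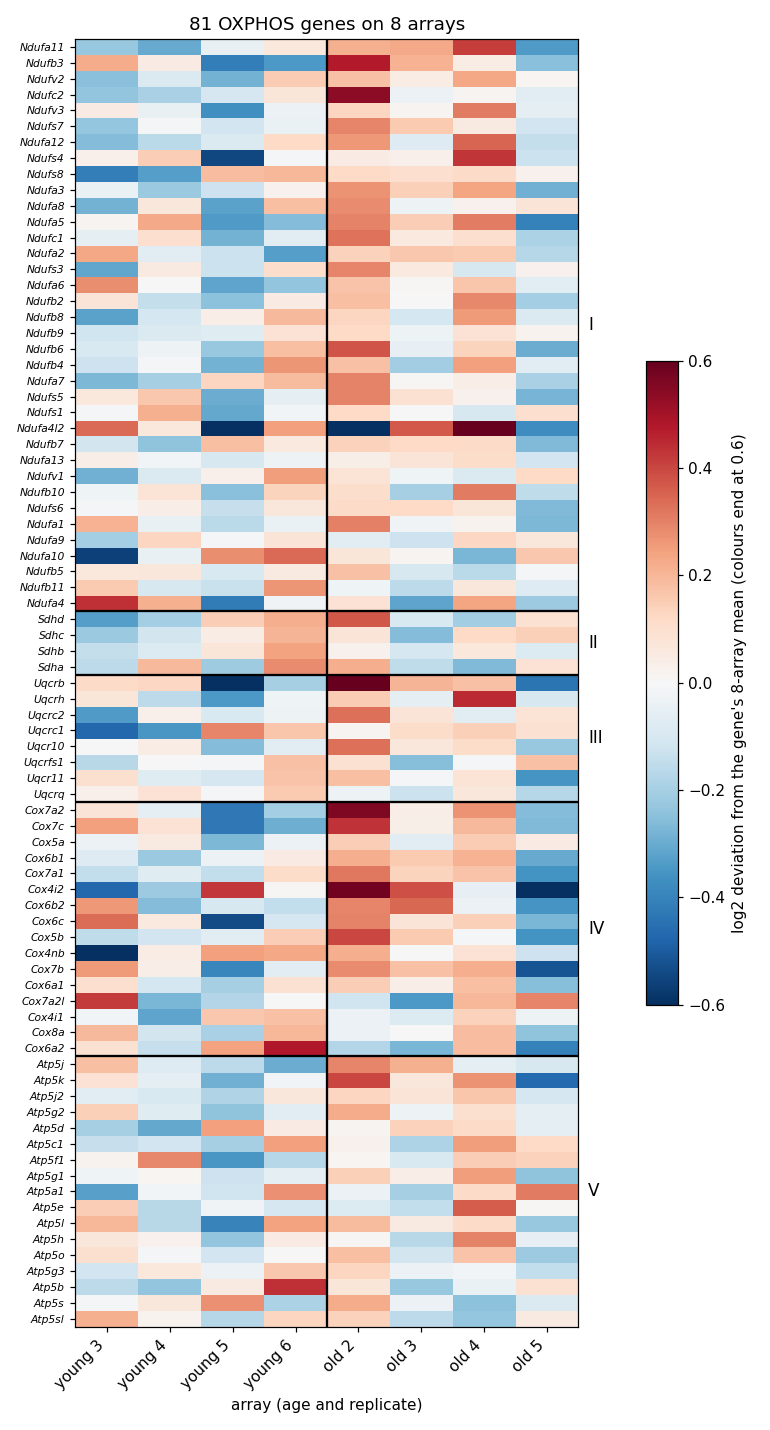
Deviation of 81 of the 82 genes (rows, grouped by complex I to V and ordered by difference) from its own mean over the 8 arrays (columns), as log2 colours that end at 0.6. Old replicate 2 is red over most rows (72 of all 82 genes above their mean) and young replicate 5 blue (18 of 82 above), while complex II follows another order.

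Complex I, the NADH dehydrogenase, had 37 genes, all tested. The fitted difference was above 0 in 33, with a median of 0.10 and a range from -0.11 to 0.26. The 7 conserved core subunits, which hold the electron path to ubiquinone, lay above 0 in 7 of 7, with a median of 0.14. The 30 remaining genes, grouped as accessory by name and with Ndufa4 and Ndufa4l2 among them, had a median of 0.090. Neither group held a gene past the limma threshold.

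Ndufa11, a membrane-arm accessory subunit, had the highest fitted difference of complex I. On the log2 scale, with 0 set at the 75th percentile of each array, its signal was 3.33, 3.26, 3.51 and 3.62 on the young arrays and 3.77, 3.79, 3.97 and 3.22 on the old ones. Of the old arrays, 3 lay above every young array and old replicate 5 lay below all of them. The difference was 0.26 with a 95% interval from -0.20 to 0.72 (limma, adjusted p = 0.998). Within slides it was 0.58 on slide 1 and -0.06 on slide 2.

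Ndufb3, another accessory subunit, differed by 0.24 (interval -0.26 to 0.75), with 4.52 ± 0.31 in young and 4.76 ± 0.30 in old CMPs (SD, n = 4 each). Ndufa4, first described in complex I and since placed with complex IV, had the lowest value of the group. Its log2 signal was 5.56, 5.34, 4.70 and 5.10 in young and 5.21, 4.80, 5.36 and 4.90 in old CMPs. Young replicate 5 was the lowest and young replicate 3 the highest array, so the old arrays lay within the young range. The difference was -0.11 (interval -0.62 to 0.41). Its relative Ndufa4l2, known as a hypoxia-induced gene, was well above background on 3 young and 4 old arrays, and its difference of 0.06 had an interval from -0.77 to 0.88. That is the widest interval of complex I.

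None of the core subunits of complex I passed the test, and the intervals of all that are named include 0. Ndufv1, which binds the flavin, was 5.78, 5.98, 6.09 and 6.32 in young and 6.15, 6.04, 5.98 and 6.18 in old CMPs. All 4 old arrays lay within the young range, and the difference was 0.05 (interval -0.35 to 0.44). Ndufs1, the large iron-sulphur subunit, differed by 0.06 (-0.33 to 0.45). Ndufs3, another core subunit, differed by 0.14 (-0.26 to 0.54). Higher fitted values were found for Ndufv2 at 0.23 (-0.15 to 0.62), Ndufs7 at 0.20 (-0.18 to 0.57) and Ndufs8 at 0.18 (-0.26 to 0.62), which bind iron-sulphur clusters. Ndufb11, an X-linked accessory subunit, differed by -0.09 (-0.48 to 0.29).

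Of the members, 29 had more than 1 tested probe. Ndufb5, an accessory subunit of complex I, had 4, with fitted differences from -0.51 to 0.10 and no unadjusted limma p below 0.19. Its brightest probe gave -0.05, and the probes at -0.51 and -0.32 are assigned by the array to other transcript models. These had standard errors of 0.36 and 0.30 and were dim, at a mean log2 signal of -3.88 and -2.82, and the difference between probes was not tested. Ndufv3 ranged from -0.09 to 0.21 over 3 probes and Cox7c from 0.17 to 0.39 over 3. In contrast, the 6 tested probes of Atp5l all lay between 0.04 and 0.20.

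Complex II, succinate dehydrogenase, also serves the citric acid cycle and has no subunit in mitochondrial DNA. Its 4 genes had a median difference of -0.0021, and all 4 intervals lay within 1.5-fold. Sdha, the flavoprotein, was 4.48, 4.83, 4.42 and 4.92 in young and 4.85, 4.48, 4.37 and 4.72 in old CMPs, a difference of -0.05 (interval -0.50 to 0.39). Sdhb, the iron-sulphur protein, was 6.11, 6.17, 6.33 and 6.49 in young and 6.28, 6.15, 6.31 and 6.17 in old CMPs, a difference of -0.05 (-0.42 to 0.32). All 4 old values of Sdhb lay inside the young range, while Sdha had 1 old array below it.

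Sdhc and Sdhd anchor the enzyme in the membrane. Sdhc was 3.45, 3.57, 3.72 and 3.88 in young and 3.76, 3.42, 3.80 and 3.82 in old CMPs, a difference of 0.04 (interval -0.36 to 0.45). Sdhd was 5.19, 5.32, 5.67 and 5.74 in young and 5.89, 5.43, 5.31 and 5.62 in old CMPs, a difference of 0.08 (-0.38 to 0.55). The arrays stood in another order for this complex than for the other ones. Its median deviation was lowest in young replicate 3 (-0.19) and highest in young replicate 6 (0.23), and old replicate 5, below 0 for complexes I, III, IV and V, stood at 0.090. No test of that difference between complexes was made. The citric acid cycle list had the same lowest and highest arrays, at -0.26 and 0.19, with old replicate 5 at 0.085. So did mitochondrial transporters and pores, at -0.32 and 0.24.

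Complex III, the cytochrome bc1 complex, had 8 genes with a median difference of 0.16, of which 6 lay above 0. Uqcrb, a small subunit that binds ubiquinone, had the highest value: 5.49, 5.50, 4.75 and 5.18 in young and 6.02, 5.58, 5.55 and 4.94 in old CMPs. Of its old arrays, 3 lay above every young array, and old replicate 5 lay second lowest of all. The difference was 0.29 with the widest interval of the complex, from -0.31 to 0.89, and its 3 tested probes gave 0.25 to 0.30. Uqcrh, the hinge protein, differed by 0.23 (interval -0.20 to 0.65).

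The core proteins Uqcrc1 and Uqcrc2 differed by 0.18 (-0.29 to 0.65) and 0.21 (-0.17 to 0.60). Uqcrc1 was 4.34, 4.47, 5.11 and 4.98 in young CMPs and 4.83, 4.93, 4.96 and 4.91 in old ones. Here the young arrays fell apart by slide, and the difference was 0.49 on slide 1 and -0.13 on slide 2. Uqcrfs1, the Rieske iron-sulphur protein and an electron carrier of the enzyme, was 5.05 ± 0.14 in young and 5.05 ± 0.19 in old CMPs (SD, n = 4 each), a difference of 0.00 (-0.39 to 0.39).

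Uqcrq, a small subunit named for ubiquinone binding, had the lowest value of complex III and close replicates. It was 7.21, 7.26, 7.17 and 7.33 in young and 7.15, 7.04, 7.24 and 7.002 in old CMPs. Of the old arrays, 3 lay below every young array, and old replicate 4 lay among the young ones. The difference was -0.13 (interval -0.48 to 0.22), and its other probe gave -0.08. Of its brightest probe, 48 of 60 bases recur in a probe without a gene name. Uqcr11, the smallest subunit, differed by -0.05 (-0.45 to 0.36).

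Complex IV, cytochrome c oxidase, has several subunits with isoforms that differ between tissues. Of its 19 genes, 16 were tested, with a median difference of 0.11 and 13 above 0. Without Cox4nb, now named Emc8, the median was 0.12 with 12 of 15 above 0. The 3 untested genes are isoforms best known from heart and skeletal muscle (Cox8b) or testis (Cox7b2, Cox8c). Cox7b2 and Cox8c were well above background on 0 of 8 arrays, and Cox8b on 1 old array.

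Of the isoforms usual in most tissues, Cox4i1 was 7.36, 7.06, 7.53 and 7.54 in young and 7.34, 7.29, 7.51 and 7.34 in old CMPs. Its difference was 0.00 with an interval from -0.40 to 0.39, and every old array lay within the young range. Cox5a, a matrix-side subunit, differed by 0.14 (-0.22 to 0.51), and Cox5b, which binds zinc, by 0.09 (-0.36 to 0.54). Cox6a1 differed by 0.06 (-0.34 to 0.45), Cox6b1 by 0.14 (-0.27 to 0.55), Cox7b by 0.08 (-0.44 to 0.60) and Cox8a by -0.05 (-0.45 to 0.36).

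The 2 genes at the ends of the list, Cox7a2 and Cox6a2, are both isoform genes of complex IV. Cox7a2, the form found in most tissues, was 5.47, 5.34, 4.97 and 5.19 in young and 5.96, 5.44, 5.66 and 5.13 in old CMPs. Old replicates 2 and 4 lay above all young arrays, and the others lay among them. The difference was 0.30 (interval -0.19 to 0.79). Cox7c, a small membrane subunit, had the second highest difference of the complex at 0.20 (-0.31 to 0.70).

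Cox6a2, the heart and muscle form, was 1.89, 1.66, 2.04 and 2.28 in young and 1.62, 1.52, 1.98 and 1.39 in old CMPs. Of the old arrays, 3 lay below every young array and old replicate 4 lay above 2 of them. The difference was -0.34 (interval -0.80 to 0.12), the lowest among the members. On slide 1 it was 0.03 and on slide 2 -0.70, with an unadjusted limma p of 0.033 on slide 2 alone. The remaining tissue forms were also detected on all 8 arrays. Cox4i2 differed by 0.13 (-0.54 to 0.80), Cox6b2 by 0.12 (-0.36 to 0.60) and Cox7a1 by 0.13 (-0.30 to 0.56). Cox7a2l, a relative of Cox7a2, differed by 0.01 (-0.48 to 0.51).

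Because the isoforms are close relatives, the probes that separate them are shown, each as the first 30 of its 60 bases in the array's own listing. No brightest probe of a member shared a run of 20 or more bases with a probe of another member. In build mm9, the array places the Cox6a1 probe at chr5:115795726-115795785 and the Cox6a2 probe at chr7:135349160-135349219. It places the Cox7a1 probe at chr7:30970337-30970948, a span wider than the probe itself, and the Cox7a2 probe at chr9:79603215-79603274. The Cox7a1 probe lies on the plus strand and the others on the minus strand.
Cox6a1: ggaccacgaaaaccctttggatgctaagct
Cox6a2: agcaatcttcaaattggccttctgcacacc
Cox7a1: acaacgtcctgtacagactgaccatgacgc
Cox7a2: ctttggggatcaatatttattgatgtgtat

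Complex V, the ATP synthase, had 17 genes, with a median difference of 0.10 and 13 above 0. Both names that are no subunit, Atp5s at -0.07 (interval -0.48 to 0.34) and Atp5sl at -0.10 (-0.49 to 0.30), held the lowest values, and without them 13 of 15 lay above 0. The 5 genes of the catalytic F1 part ran from -0.05 to 0.11. Atp5b, the catalytic beta subunit, was 7.92, 7.84, 8.13 and 8.52 in young and 8.15, 7.85, 8.04 and 8.17 in old CMPs. All 4 old arrays lay within the young range, and the difference was -0.05 (-0.49 to 0.39). Atp5c1, the rotating gamma subunit, differed by 0.11 (-0.30 to 0.51).

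The ring of c subunits, which turns with the proton flow, is made from 3 genes that encode the same mature protein. Atp5g1 differed by 0.10 (-0.29 to 0.48), Atp5g2 by 0.12 (-0.26 to 0.49) and Atp5g3 by -0.04 (-0.40 to 0.32). Within an age their arrays lay close together, with SDs from 0.06 to 0.21. Atp5o, the stalk subunit that confers oligomycin sensitivity, was 5.47 ± 0.09 in young and 5.48 ± 0.20 in old CMPs (SD, n = 4 each), a difference of 0.01 (-0.37 to 0.39).

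Atp5j, another stalk subunit (coupling factor 6), had the highest value of complex V. It was 5.58, 5.32, 5.24 and 5.10 in young and 5.69, 5.61, 5.34 and 5.30 in old CMPs. Old replicates 2 and 3 lay above all young arrays, and the difference was 0.18 (interval -0.24 to 0.59). Atp5k, which holds ATP synthase dimers together, differed by 0.14 (-0.35 to 0.63). The array lists its probe at chrY:1599680-1599738 in build mm9, while RefSeq has the gene on chromosome 5. Which locus the probe read was not tested, and its 3 tested probes gave 0.12 to 0.19.

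**Figure D4:**
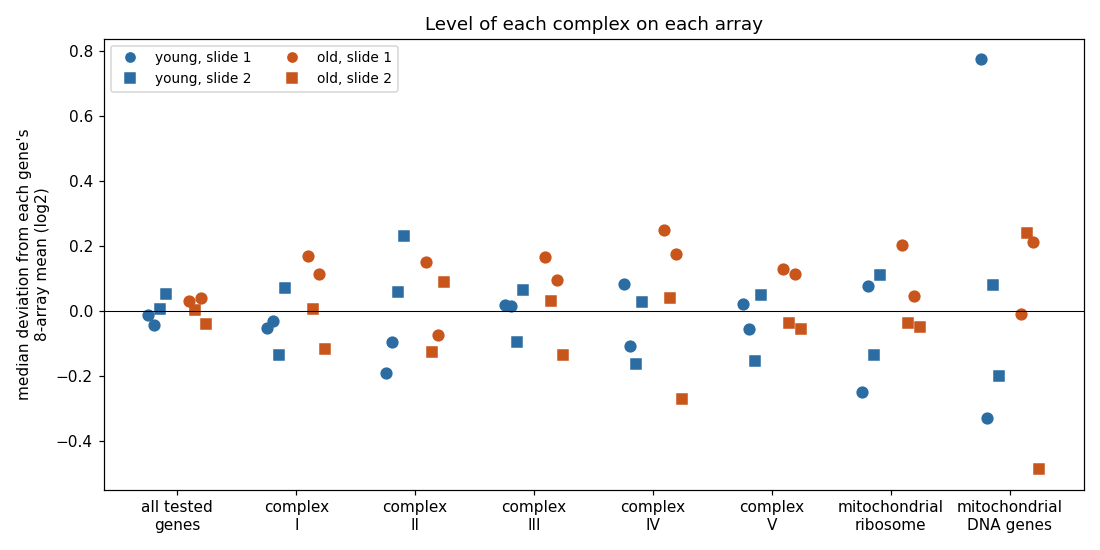
Median deviation (log2, vertical axis) of the genes of each complex from their own 8-array means, one point per array, in young (blue) and old (orange) CMPs, with circles for slide 1 and squares for slide 2. Young and old points overlap in every complex, and the range over arrays is widest in complex IV (0.52) among the complexes.

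Promoters were read for sequence the members may share. RefSeq promoter windows of build GRCm38.p6, from 250 bases before to 50 bases after the start, were matched by symbol to 69 of the 85 genes. Letters bound by 3 regulators known from respiratory chain genes were sought on both strands: GCGCATGCG for NRF1, CCGGAAG for ETS factors such as GABP, and AAGATGGCG for YY1. A gene was counted if any of its windows held the letters. NRF1 letters were found for 8 of 69 genes (11.6%), against 1.95% of 27025 genes with a window and 3.47% of the 12099 tested ones. ETS letters were found for 16 (23.2%), against 9.93% and 17.4%. YY1 letters were found for 8 (11.6%), against 1.64% and 3.03%. At least 1 of the 3 was found for 27 genes (39.1%), against 12.7% and 22.3%, and hits of different motifs did not overlap.

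The genes with a motif lay among those without one in their age difference. The median difference was 0.13 for the 8 genes with NRF1 letters, 0.08 for the 16 with ETS letters, 0.14 for the 8 with YY1 letters and 0.10 for the 40 tested genes with none. By complex, NRF1 letters were found in 2 genes of complex I, 2 of complex III, 1 of complex IV and 3 of complex V, and YY1 letters in complexes I (5) and V (3). A match of letters is a description of the window and not a measured binding site.

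Stretches of 30 bases around a match are shown for genes named above, on the strand of the gene and with the matching letters in capitals. NRF1 letters are shown for Ndufa11, Cox6a1, Atp5g2 and Atp5k, ETS letters for Ndufs3, Sdhd and Uqcr11 (on the opposite strand in Sdhd), and YY1 letters for Atp5j.
Ndufa11: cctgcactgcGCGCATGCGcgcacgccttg
Cox6a1: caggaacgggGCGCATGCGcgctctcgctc
Atp5g2: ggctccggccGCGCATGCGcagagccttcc
Atp5k: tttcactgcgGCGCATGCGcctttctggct
Ndufs3: cccgcgtccgcCCGGAAGaagagtcactgc
Sdhd: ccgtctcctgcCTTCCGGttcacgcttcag
Uqcr11: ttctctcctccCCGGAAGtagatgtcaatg
Atp5j: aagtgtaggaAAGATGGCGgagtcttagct
In build GRCm38.p6 these lie at chr17:56717692-56717721 (plus strand) for Ndufa11 and, on the minus strand, at chr5:115349101-115349130 for Cox6a1, chr15:102671070-102671099 for Atp5g2, chr5:108434430-108434459 for Atp5k, chr2:90904730-90904759 for Ndufs3, chr9:50603877-50603906 for Sdhd, chr10:80406869-80406898 for Uqcr11 and chr16:84835045-84835074 for Atp5j.

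The other mitochondrial lists also held no called gene, where the same call took 0.207% of all tested genes. Of 28 tested assembly factors, which build the complexes, 0 were called and 0 had an unadjusted limma p under 0.05, with a median difference of 0.10. The same held for 17 genes of electron carriers, ubiquinone synthesis and accessory proteins (median 0.10), 16 of mitochondrial gene expression and its regulators (0.040), 18 of the citric acid cycle (-0.0004) and 8 of mitochondrial transporters and pores (0.10, among them the inner membrane adenine nucleotide carriers and the outer membrane porins). The list with the electron carriers includes Cyc1, Ndufab1 and Usmg5, subunits that the name rule does not match, at 0.20, 0.07 and 0.24. For Ppargc1a, a coactivator of mitochondrial biogenesis, 0 arrays gave a signal well above background. Of 76 proteins of the mitochondrial ribosome, which makes the subunits encoded in mitochondrial DNA, 61 lay above 0 with a median of 0.10 and 0 were called or below an unadjusted p of 0.05. The old arrays lay wholly above the young ones for the assembly factors Sco2 and Surf1, the regulator Nrf1 and Mrps11 of the ribosome. They lay wholly below for 0 genes of these lists. Of all tested genes, 3.17% lay wholly above and 1.67% wholly below. Fitted differences were above 0 in 10 of 16 genes of mitochondrial gene expression and in 9 of 18 of the citric acid cycle.

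The 13 subunits encoded by mitochondrial DNA varied far more between arrays than the nuclear ones. Their median SD within an age was 0.49, against 0.20 for the nuclear members. Their median deviation was 0.77, -0.33, 0.080 and -0.20 on the young arrays, with young replicate 3 at the top. On the old arrays, from replicate 2 to 5, it was -0.010, 0.24, 0.21 and -0.49. Their median age difference was -0.0070, from -0.31 for ND2 to 0.17 for COX1, and 0 of 13 were called or had an unadjusted limma p under 0.05.

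Among 16 tested glycolysis genes the median difference was 0.011, and 2 had an unadjusted limma p under 0.05, both lower in old CMPs, with 0 called. Of all tested genes, 2.68% were lower at that threshold. Ldhb, a lactate dehydrogenase subunit, was 0.86 ± 0.14 in young and 0.16 ± 0.06 in old CMPs (SD, n = 4 each), a difference of -0.71 (limma, adjusted p = 0.16). Hk3, a hexokinase of myeloid cells, differed by -0.57 (adjusted p = 0.70).

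Of the cell type marker lists, 1 megakaryocyte gene and 1 stem cell gene were called. Among the gate, granulocyte and monocyte, erythroid and lymphoid markers 0 were, and the same call took 0.207% of all tested genes. At an unadjusted limma p under 0.05, 3.95% of all tested genes were higher in old CMPs and 2.68% lower. Kit, Cd34 and Mpo, which define or mark CMPs, were well above background on all 8 arrays, as was Ly6a (Sca-1), which the gate selects against. Of 8 tested gate and CMP markers, 2 had an unadjusted limma p under 0.05 and both were lower in old CMPs, Mpo by -0.59 and Ly6a by -0.73 on the log2 scale (adjusted p = 0.36 and 0.41). Over the 8 markers, 1 fitted difference lay above 0 and 7 below, with a median of -0.42. The 1 above was Kit, the stem cell factor receptor used in the gate, at 0.31 (interval -0.15 to 0.76). Cd34 and the Fcγ receptor genes Fcgr3 and Fcgr2b differed by -0.21, -0.47 and -0.36. The summed signal of the 8 markers, in multiples of the 75th percentile, ran from 587.9 to 801.7 on the young and from 471.3 to 535.1 on the old arrays, of which Mpo alone made up 73.5% to 81.8%. All 14 megakaryocyte markers had an unadjusted limma p under 0.05 and were higher, with a median difference of 1.14, and Gp9, a platelet glycoprotein, was called (difference 1.21, adjusted p = 0.033). Their summed signal ran from 99.2 to 196.9 on the young and from 286.8 to 381.4 on the old arrays. Pf4 differed by 1.36 and Ppbp by 1.77 (adjusted p = 0.13 and 0.23).

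Of 11 granulocyte and monocyte markers, 5 had an unadjusted limma p under 0.05, all lower in old CMPs and 0 called, with a median of -0.42 over the list. Their summed signal ran from 664.5 to 888.8 on young and from 508.7 to 652.5 on old arrays. The lowest were Ly6c1 at -1.52, Elane at -1.02 and Prtn3 at -1.01. Of 9 stem cell markers, 6 had fitted differences above 0 and 3 below, with a median of 0.44. An unadjusted limma p under 0.05 was found for 3, all higher in old CMPs, and of these Hoxb5 was called, at 1.85 (adjusted p = 0.0071), while Meis1 at 0.65 and Gfi1b at 0.57 were not. The lowest was Procr at -0.30 (-0.86 to 0.25). Their summed signal ran from 31.0 to 42.4 on young and from 48.7 to 60.6 on old arrays. Gfi1b and Meis1 were the brightest, at log2 means of 4.90 and 4.37 in old CMPs, followed by Ctnnal1 at 0.75. Of 11 erythroid markers, 5 had fitted differences above 0 and 6 below, with a median of -0.0085 and 0 called. Only Aqp1 at 1.14 and Car2 at 0.63 had an unadjusted p under 0.05, and the lowest was Hba-a1 at -0.95 (-2.95 to 1.05). The sums of the list were 46.5 to 94.9 on young and 68.9 to 102.6 on old arrays. Of 6 lymphoid markers, 1 had a fitted difference above 0 and 5 below, with a median of -0.18, and 0 had an unadjusted limma p under 0.05. Their sums were 33.8 to 45.3 on young and 39.1 to 49.9 on old arrays. The 1 above 0 was Nkg7, at 0.31 (-0.13 to 0.75). It was also the brightest, at a log2 mean of 4.67 in young and 4.98 in old CMPs, followed by Cd79b at 3.18 and 3.06. Ebf1, Pax5 and Ncr1 were well above background on 0 arrays. In sorted pools, a smaller number of cells of one type and less RNA per cell cannot be told apart, and the part of these shifts in the members' values was not tested.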

How the data were processed

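Common myeloid progenitor RNA of young and old mice was measured on 8 one-colour arrays of 62976 spots (Agilent 8x60K). The authors scanned them and extracted spots with Agilent Feature Extraction 10.7.3.1. The deposited scanner files hold background-corrected signal intensity on a linear scale with other marks per spot, for background, saturation and outliers. A table of log2 values, which the authors shifted to the 75th percentile and centred, was deposited too and served as an alternative only. Probe positions and gene names are those of the array design.

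The intensities were log2-transformed and shifted so that the 75th percentile of the 59305 non-control spots was 0 on each array. Outlier spots (141 to 230 per array) were left out and spots of a probe were averaged. The 75th percentile was 289.7 to 565.4 in intensity units, 55.7% to 63.2% of probes were well above background, 0 spots were saturated, and arrays correlated at 0.967 to 0.992. The small number of arrays limits the precision. Probes well above background on at least 4 of 8 arrays were tested with limma 3.58.1 in R 4.3.3 (lmFit and eBayes, 4 young against 4 old), adjusted by Benjamini-Hochberg over all tested probes. The script was tested on simulated data. A gene was called at an adjusted p under 0.05 and 1.5-fold. P-values measure the spread between these arrays. The labels do not name the animals.

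Genes named are the 2 highest and 2 lowest of each complex, a list of core subunits, isoform families, untested members and, of other lists, up to 3 per direction with an unadjusted p under 0.05. A member that is counted but not shown is not reported here. Some further genes were named after their values were seen, and so were the subunit roles. The members and lists were chosen with earlier results of these data known. Alternatives were another background correction, normalization, filter, probe rule, variance model and test, the slide, a block on the replicate number, and leaving out each array.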

Additional observations from a re-analysis of the deposited data

Results flagged for a closer look

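For 3 genes of those examined, 1 of the 4 old arrays stood apart from the others. Cox6b1, a subunit on the outer side of complex IV, read 3.64 in old replicate 5, against 4.10 to 4.16 on the other old arrays. Cox7b, a small membrane subunit of complex IV, read 5.49 in old replicate 5, against 6.18 to 6.29. Sdhc, a membrane anchor of complex II, read 3.42 in old replicate 3, against 3.76 to 3.82. In each case the gap to the nearest array was above Dixon's critical value as a share of the group's range (0.88, 0.86 and 0.84). Of 100 groups of 4 arrays examined in this way, chance alone gives about 5, since it flags about 1 in 20. The groups examined did not hold every member at both ages, so the 3 genes are not a full list. Ndufb7, outside them, read 6.13 in old replicate 5, against 6.51 to 6.53 on the other old arrays. Ndufa2, also outside them, read 6.11 there, against 6.42 to 6.44.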

How the results depend on the processing

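No member was called under any alternative, with or without the fold threshold. An unadjusted limma p under 0.05 was found for 1 member lower in old CMPs, Cox6a2, on slide 2 alone and with array weights, and for 0 members elsewhere. With the median shift, the medians were 0.21 for the members, 0.22 for complex I, 0.28 for complex III and 0.21 for complex V, and 13 intervals lay within 1.5-fold. On slide 2 alone they were -0.038, -0.033, -0.017 and -0.019, with -0.18 for complex II, and on slide 1 complex II stood at 0.21. Array weights brought the median log2 difference of complex V to 0.0004. With the median shift, normexp or the authors' table, 1 member lay wholly above the young arrays (Uqcrh, Ndufc2 and Ndufv3, in that order). In those settings 3.82%, 2.91% and 3.57% of all tested genes did. With quantile normalization 1 member lay wholly below (Uqcrq). The share of all tested genes wholly below was taken only in the reported fit, at 1.67%. Overlap and intervals were not counted within a slide.

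Leaving out 1 array gave a members' median of 0.051 to 0.15, 29 to 50 intervals within 1.5-fold, and 0 to 10 members wholly above and 0 to 2 wholly below the young arrays. In the same settings, 3.58% to 5.1% of all tested genes lay wholly above. The 10 came without old replicate 5, where 4.76% of all tested genes did. Medians ran from 0.071 to 0.17 for complex I, -0.063 to 0.075 for complex II, 0.090 to 0.20 for complex III, 0.039 to 0.23 for complex IV and 0.036 to 0.11 for complex V. The 29 intervals came without old replicate 3, 32 without old replicate 5 and 33 without young replicate 6.

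Over 3 shared replicate numbers the deviations of young and old arrays correlated at -0.14 to 0.15, and over unlike numbers at -0.26 to 0.37. So few values cannot decide whether the numbers pair the arrays. With the replicate number as a block the members' median was 0.061, 0 were called and 0 intervals lay within 1.5-fold. Young replicate 6 and old replicate 2 have no partner number, so this block takes them out of the age difference. Fewer arrays then set the difference and its interval. The cause of the other shifts was not tested. Over all genes, the settings called 0 to 113 higher and 0 to 37 lower, with 44 and 4 in the reported fit. Of 967 single-gene values recomputed, 940 moved by less than the spread between arrays and 27 by more.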
